A study of Mus musculus and synthetic construct with 30 samples.

Results

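Kidneys of E14.5 mouse embryos with and without the Peril locus were profiled by polyA RNA-seq, in 6 of the 30 samples of the series (16 of which were RNA-seq libraries). They were chosen by their labels, as every RNA-seq library of kidney, and comprised 3 WT embryos (numbers 1, 3 and 8) and 3 KO embryos (numbers 7, 9 and 10). All 6 embryos carried litter number 43, were collected at E14.5 and came from matings of heterozygotes. The line, officially Periltm1.1Vlcg, was kept on a mixed C57BL/6J/129S6 background, given as N3-C57BL/6J and without Neo. In the KO allele the body of Peril, a long noncoding RNA gene on chromosome 3 in the neighbourhood of Sox2, is replaced by a LacZ reporter. WT embryos 1 and 8 were male and embryo 3 female, and KO embryo 7 was male and embryos 9 and 10 female, so sex was not balanced between genotypes. Parental chromosome carried along with the targeted allele cannot be told apart from the loss of Peril in genes linked to the locus. How far it reaches along chromosome 3 was not measured, nor which unlinked parental segments each embryo carried. Values from the other tissues of the series came from the same allele and background. These were ganglionic eminences with olfactory bulbs (GE/OB) of litter 46 at the same age, with 2 WT males and 2 KO females, and male mouse embryonic stem cells (mESC), with 3 wells each of 1 WT and 1 KO line.

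At this age the ureteric bud, an epithelial tree that becomes the collecting ducts, is still branching. Nephron progenitors form a cap around each bud tip, where they renew themselves or turn into epithelial vesicles that give rise to podocytes and tubules. Stroma, vessels and a few macrophages lie between these structures. The kidney comparison asks which genes differ with genotype in an organ in which Peril itself was not detected.

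The kidney libraries held 19263097 to 45924887 summed expected counts, with the lowest total in WT embryo 8. Pearson's r of log2 counts scaled to library size (CPM) between any 2 kidneys, across genes, was 0.9801 to 0.991. Renal markers were present in every library: Six2, the transcription factor that maintains nephron progenitors, was at 97.2 to 120.2 TPM (TPM, transcript abundance scaled for length and depth by RSEM), and Foxd1, which marks the stroma, stood at 58.1 to 90.1 TPM. Markers of the loop and distal tubule differed in level. Slc12a1, the salt transporter of the loop of Henle, was at 0.01 to 0.31 TPM, and Sostdc1, of the same list, at 1.88 to 6.54 TPM. WT embryo 8 stood apart in the summed level of granulocyte genes. S100a9, a neutrophil protein, was at 0.24, 1.22 and 10.6 TPM in WT against 0.94, 1.15 and 0.38 TPM in KO, highest in WT embryo 8.

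Peril had 0 counts in all 6 kidneys, which allows at most 0.0653 to 0.156 CPM (3 counts of each library, counting error only). The reporter was close to background as well. LacZ was at 0.33, 0.47 and 0.09 TPM in WT against 0.08, 0.1 and 0.15 TPM in KO, with means of 0.297 ± 0.192 and 0.11 ± 0.0361 TPM (SD, n = 3 each; exact permutation test, two-sided, p = 0.3, where the smallest possible is 0.1). The groups overlapped, whereas KO GE/OB held 44.4 to 45.8 TPM of LacZ and KO mESC 69.6 to 73.7 TPM. Neither gene could therefore check the genotype labels of the kidneys. Sox2, the pluripotency and neural progenitor factor next to Peril, had 42 counts in WT embryo 3 and 1 to 3 counts in each of the other kidneys, and did not reach the count minimum for a test.

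Between KO and WT kidneys, 38 of 15528 tested genes were called at an adjusted p under 0.05 (edgeR's quasi-likelihood test with Benjamini-Hochberg adjustment), a background of 0.245%. In KO, 6 genes were higher (0.0386%) and 32 lower (0.206%). By what the genes are known to do and where they lie, a grouping made after their values were seen, 5 were neighbours of Peril on chromosome 3, 13 were striated muscle genes, 14 were genes of inflammation and the interferon response, 3 belonged to basement membranes and their receptors, and 3 were other genes. TPM of the genotypes did not overlap for 37 of the 38, with Neb as the exception, and for 17.5% of all tested genes. Among the 38, 9 passed the count minimum through the WT kidneys alone and so had to differ: Saa3, Cxcl10, Irg1, Gbp5, Clec4e, Gm5148, Mx1, Ccl5 and Il1b. The spread in this fit was shared with GE/OB and with mESC wells, and wells of a genotype came from the same clone. The median SD of log2 CPM within groups was 0.0841 in mESC, 0.118 in GE/OB and 0.122 in kidney. The kidney p-values of this fit therefore rest in part on the smaller spread between wells, and not on that between embryos alone. Fitted on their own, the 6 kidneys gave 10 calls (0.0644%), all among the 38, namely Exosc9, Mylpf, Kcnmb2, Mccc1, Saa3, Cxcl10, Irg1, Myh8, Clec4e and Ccl5. With each kidney left out in turn, 20 of the 38 stayed called throughout.

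The gene with the smallest p lay near Peril. Exosc9, a subunit of the RNA exosome, the complex that degrades and trims RNA from its 3′ end, lies at chr3:36552606-36565727 (mm10), 1.78 Mb from the start of Peril. It was at 62.5, 58.2 and 61.4 TPM in WT against 28.8, 26.1 and 30.5 TPM in KO. Every KO kidney held less than every WT kidney, and Exosc9 fell 2.33-fold (log2 fold change -1.22 ± 0.07 SE, adjusted p = 1.22e-07). Mccc1, the biotin-carrying subunit of the methylcrotonyl-CoA carboxylase of leucine breakdown, lies at chr3:35959312-36000678, 1.23 Mb away. It was at 17.04, 16.6 and 15.8 TPM in WT against 12.8, 11.7 and 10.9 TPM in KO. The 3 KO kidneys again lay below the 3 WT kidneys, and Mccc1 fell 1.54-fold (log2 fold change -0.62 ± 0.06 SE, adjusted p = 7.43e-05). Bbs7, a subunit of the BBSome that moves membrane proteins through cilia, lies at chr3:36573142-36613477, 1.84 Mb away, and was at 8.79, 9.53 and 7.87 TPM in WT against 5.14, 5.13 and 5.24 TPM in KO. KO kidneys were nearly alike and below all WT kidneys, and Bbs7 fell 1.53-fold (log2 fold change -0.62 ± 0.10 SE, adjusted p = 0.00747), a call that the kidneys alone did not give (adjusted p = 0.08399).

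Kcnmb2, an auxiliary subunit of the calcium-activated BK potassium channel, moved the other way. It lies at chr3:31902507-32200180, 2.87 Mb from Peril on the side opposite Exosc9, and was at 1.88, 1.73 and 1.59 TPM in WT against 5.94, 6.68 and 6.1 TPM in KO. All KO kidneys exceeded all WT kidneys, and Kcnmb2 rose 3.39-fold (log2 fold change 1.76 ± 0.16 SE, adjusted p = 6.32e-05). Gm5148, a predicted gene at chr3:37714190-37724490, 2.95 Mb away, was at 0.92, 1.58 and 1.68 TPM in WT against 0.35, 0.08 and 0.05 TPM in KO. It fell (log2 fold change -3.10 ± 0.43 SE, adjusted p = 0.00498), with WT embryo 1 the lowest of the WT kidneys, and was not called in the kidneys alone (adjusted p = 0.118). Gm5148 reached the count minimum through the WT kidneys alone and so had to differ.

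**Figure D1:**
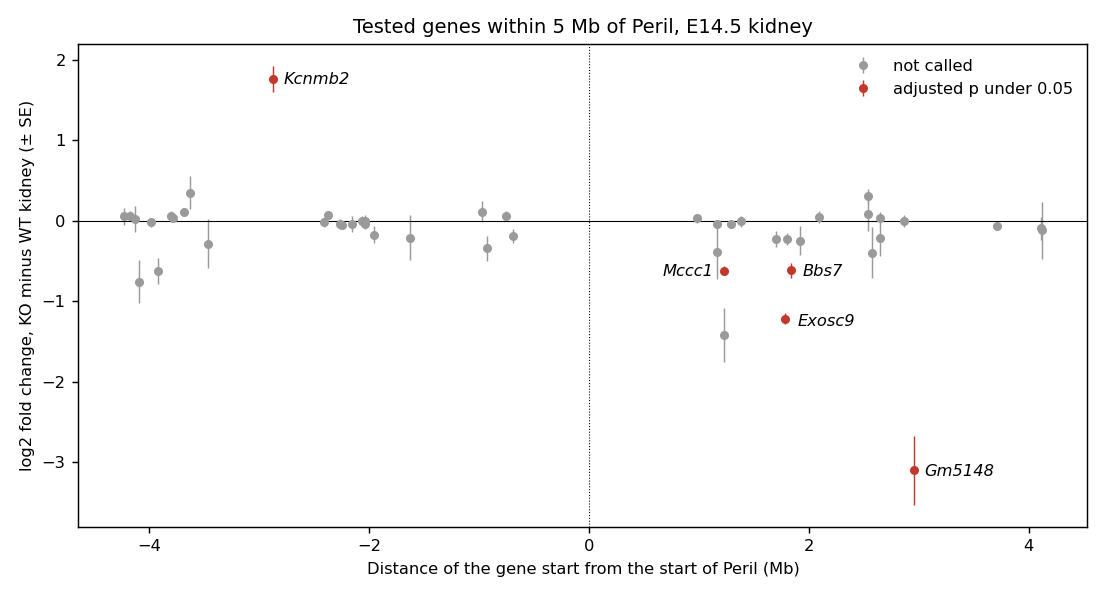
The horizontal axis gives the distance of the start of each tested gene from the start of Peril in Mb, and the vertical axis the log2 fold change of KO minus WT kidney, with bars for the SE. The called genes, in red, are Mccc1, Exosc9, Bbs7 and Gm5148 below 0 and Kcnmb2 above 0, among 49 genes.

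Most neighbours of Peril were not called. Of the 18 tested genes within 2 Mb, 3 were called (16.7%, against 0.245% over all genes), and the other 15 had log2 fold changes from -1.42 to 0.11. Within 5 Mb, 5 of 49 were called (10.2%), and between 5 and 10 Mb edgeR called 0 of 21 (unadjusted p under 0.05 for 1 of 21 or 4.76%, 0 called by DESeq2; over all tested genes 7.7% had an unadjusted p under 0.05). Further along chromosome 3 the calls were Frem2, Casq2 and Gbp5, 3 of 664 (0.452%), and on all other chromosomes 30 of 14794 (0.203%). These shares include genes that reached the count minimum through the WT kidneys alone and so had to differ. On chromosome 3 they were Gm5148 and Gbp5, and elsewhere Saa3, Cxcl10, Irg1, Clec4e, Mx1, Ccl5 and Il1b. Fxr1, an RNA-binding protein gene 0.752 Mb from Peril, was at 110.1 to 120.4 TPM in WT against 125 to 129.6 TPM in KO (log2 0.06, adjusted p = 0.858). The lowest log2 value of an uncalled gene within 2 Mb belonged to A330050B17Rik, at 0.24 to 0.34 TPM in WT against 0.09 to 0.19 TPM in KO (log2 -1.42, adjusted p = 0.146). This noncoding RNA gene shares 846 bases with Mccc1 on the opposite strand, and Exosc9 shares 863 bases with Ccna2. Mccc1 also shares 31529 bases with Gm15952 on the opposite strand. These are overlaps of whole gene spans, introns included. The RSEM options given in the study's methods hold none for strand, so reads of shared stretches cannot be assigned to 1 gene of a pair by their strand. Ccna2, a cyclin of S phase and mitosis, was at 82.04 to 96.9 TPM in WT against 79.3 to 88.4 TPM in KO (log2 -0.23, adjusted p = 0.461).

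The partners of Exosc9 and Mccc1 were measured alongside. Of 11 tested exosome genes, 1 was lower (Exosc9) and none higher, with a list median log2 fold change of 0.01 (-0.04 to 0.05 with each kidney left out), against -0.0050 over all tested genes. Exosc8, another subunit of the exosome ring, was at 145, 141 and 124 TPM in WT against 150.3, 146 and 137 TPM in KO (adjusted p = 0.947), groups that overlapped. Of 11 tested leucine breakdown genes, 1 was lower (Mccc1) and none higher, with a median of 0.02. Their summed levels were 377, 354 and 355 TPM in WT against 386, 395 and 387 TPM in KO, without overlap in TPM but with overlap in CPM. Every KO kidney exceeded every WT kidney in TPM for 3 exosome genes (Exosc4, Dis3 and Skiv2l2) and 3 leucine breakdown genes (Bckdhb, Dbt and Dld). Over all tested genes, 17.5% had no overlap in either direction. Mccc2, the other subunit of the same carboxylase, was at 21.5, 19.4 and 18.9 TPM in WT against 21.5, 21.6 and 21.3 TPM in KO (log2 0.02, adjusted p = 0.976).

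**Figure D2:**
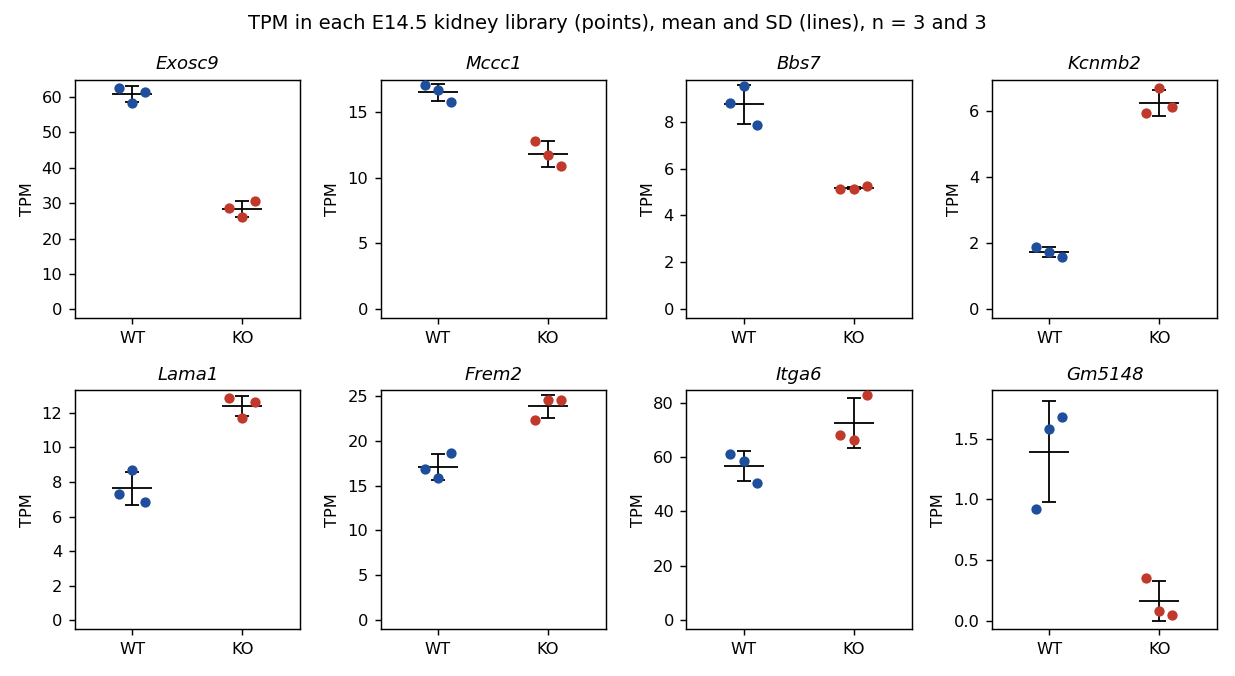
Each panel plots the TPM of 1 gene in the 3 WT kidneys (blue points) and 3 KO kidneys (red points), with the mean and SD as black lines. All 8 are called genes, and in none of the panels do the genotypes overlap, as in 37 of the 38 called genes and 17.5% of all tested genes. Gm5148 reached the count minimum through the WT kidneys alone. Exosc9 averaged 60.7 TPM over the WT kidneys but 28.4 TPM over the KO kidneys.

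The neighbours of Peril were compared with the other tissues in the same fit. Exosc9 fell in GE/OB (log2 -1.02, adjusted p = 2.55e-05) and in mESC (log2 -0.72, adjusted p = 5.55e-06), and Mccc1 did so too (log2 -0.47, adjusted p = 0.01705, and log2 -0.52, adjusted p = 3.68e-05). The fall of Exosc9 was deeper in kidney than in mESC (kidney minus mESC, log2 -0.50, adjusted p = 0.00796). The mESC arm of every such contrast holds wells of 1 clone per genotype, so its p covers the spread between wells and not between clones. Bbs7 fell in mESC (log2 -1.03, adjusted p = 1.71e-05) and was not called in GE/OB (log2 -0.16, adjusted p = 1). Gm5148 fell in GE/OB (log2 -5.53, adjusted p = 0.008996) and was not called in mESC (log2 -4.46, adjusted p = 0.101). Kcnmb2 was called in neither GE/OB (log2 0.53, adjusted p = 1) nor mESC (log2 -0.78, adjusted p = 0.601), and the contrasts of its kidney difference with these tissues did not pass (adjusted p = 0.476 and 0.0578).

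Over the 38 kidney genes, 3 were called in the same direction in GE/OB and 1 in the opposite direction, where 0.0644% of all genes were called. In mESC 5 were called in the same direction and 3 in the opposite direction, where 7.79% were called. The kidney difference itself departed from that of mESC for 15 of the 38 (background 2.58%) and from that of GE/OB for Myh8 and Duxbl1 (background 0.0386%). Saa3, among the 15, reached the count minimum through the WT kidneys alone.

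**Figure D3:**
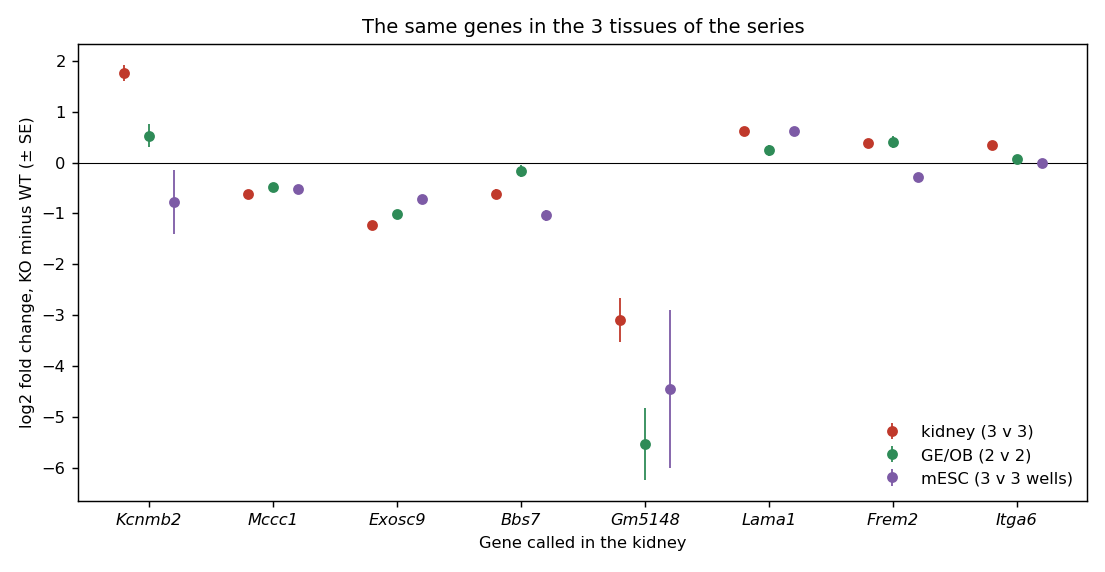
For 8 genes called in the kidney, points give the log2 fold change of KO minus WT in kidney, GE/OB and mESC, and lines the SE. Exosc9, Mccc1 and Gm5148 lie below 0 in all 3 tissues, and Kcnmb2 is at 1.76 in kidney, 0.53 in GE/OB and -0.78 in mESC.

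Of the other 5 genes that rose in KO, 3 encode proteins by which epithelia attach to their basement membrane. Lama1, the laminin alpha 1 chain of embryonic basement membranes (chr17:67697259-67822647), was at 7.29, 8.72 and 6.86 TPM in WT against 12.8, 11.7 and 12.6 TPM in KO. The KO kidneys were all above the WT kidneys, and Lama1 rose 1.53-fold (log2 fold change 0.61 ± 0.08 SE, adjusted p = 0.00143), a call that held without any 1 kidney. It rose in mESC as well (log2 0.62, adjusted p = 8.66e-05). Itga6, the alpha 6 subunit of laminin-binding integrins, was at 61.1, 58.4 and 50.5 TPM in WT against 68.1, 66.3 and 82.9 TPM in KO. It rose 1.28-fold (log2 fold change 0.35 ± 0.06 SE, adjusted p = 0.0125), with KO embryo 10 the highest. Frem2, an extracellular matrix protein of the Fraser complex that holds epithelium to mesenchyme (chr3:53513938-53657355), was at 16.9, 15.8 and 18.7 TPM in WT against 22.4, 24.6 and 24.6 TPM in KO. It rose 1.31-fold (log2 fold change 0.39 ± 0.07 SE, adjusted p = 0.0321). In mESC, unlike Lama1, Frem2 fell (log2 -0.29, adjusted p = 0.0459) and Itga6 was not called (log2 -0.02, adjusted p = 0.917). Itga6 lost its call without WT embryo 8 or KO embryo 10 (adjusted p = 0.0581 to 0.0767), and Frem2 without WT 1, WT 3, KO 9 or KO 10 (0.0875 to 0.1805) and with sex as a covariate (0.0698). In the kidneys alone none of the 3 was called by edgeR (adjusted p = 0.0814, 0.338 and 0.394).

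The other 2 genes that rose depended on single libraries. Ly75, an endocytic receptor of dendritic cells and epithelia, was at 1.88, 1.68 and 1.51 TPM in WT against 2.2, 2.35 and 2.61 TPM in KO. It rose 1.298-fold (log2 fold change 0.38 ± 0.07 SE, adjusted p = 0.0306). Fam199x, an X-linked gene, was at 6.52, 6.07 and 5.76 TPM in WT against 7.64, 8.17 and 8 TPM in KO. It rose 1.22-fold (log2 fold change 0.29 ± 0.05 SE, adjusted p = 0.0289). Both lost their calls without WT 3, WT 8, KO 9 or KO 10 (adjusted p = 0.07499 to 0.207) and with sex as a covariate (0.111 and 0.0762). Duxbl1, a double homeobox gene with near-identical copies that may share its reads, was at 3.45, 2.08 and 2.78 TPM in WT against 0.79, 0.43 and 1.15 TPM in KO. It fell (log2 -2.16, adjusted p = 0.0416), was lost without any 1 of the kidneys (0.05696 to 0.149), and rose in GE/OB (log2 9.38, adjusted p = 0.01303).

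Genes of striated muscle, whose products build the sarcomere, were lower in KO. Of 31 tested skeletal muscle genes, 11 fell (against 0.206% of all tested genes) and none rose, 30 had a log2 fold change below 0, and the median was -1.32. The fit of the kidneys alone called 2 of the 31, Mylpf and Myh8. This list, like the others, was written with earlier results of these data known, so the share describes it and is not a test. Mylpf, the regulatory light chain of fast skeletal myosin, was at 17.7, 16.6 and 12.3 TPM in WT against 5.93, 4.76 and 3.88 TPM in KO. The KO kidneys were all below the WT kidneys, and Mylpf fell 3.797-fold (log2 fold change -1.92 ± 0.14 SE, adjusted p = 4.99e-06). Myh8, the perinatal myosin heavy chain, was at 0.63, 0.54 and 0.71 TPM in WT against 0.19, 0.17 and 0.16 TPM in KO. It fell 4.22-fold (log2 fold change -2.08 ± 0.23 SE, adjusted p = 0.000227), again without overlap. Myh3, the embryonic myosin heavy chain, was at 2.35, 1.32 and 2.13 TPM in WT against 0.55, 0.37 and 0.12 TPM in KO. It fell 6.22-fold (log2 fold change -2.64 ± 0.35 SE, adjusted p = 0.00155) and was not called in the kidneys alone (adjusted p = 0.188).

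Structural genes of the thin filament and the Z-disc followed. Acta1, skeletal alpha actin, was at 8.84, 8.95 and 6.98 TPM in WT against 2.39, 1.52 and 0.67 TPM in KO. It fell 6.03-fold (log2 fold change -2.59 ± 0.34 SE, adjusted p = 0.00155; kidneys alone, adjusted p = 0.0814), with KO embryo 10 the lowest. Ttn, the giant elastic protein of the sarcomere, had 125, 67 and 79 counts in WT and 31, 22 and 21 counts in KO, and fell (log2 fold change -2.35 ± 0.29 SE, adjusted p = 0.000946; kidneys alone, adjusted p = 0.244). Actc1, cardiac alpha actin, was at 15.4, 13.6 and 16.96 TPM in WT against 4.26, 3.84 and 6.89 TPM in KO (log2 -1.69, adjusted p = 0.005201), a fall without overlap. The light chain gene Myl4, the Z-disc cross-linker gene Actn2, the troponin gene Tnnc1, the slow myosin gene Myh7 and the thin filament gene Neb fell with log2 fold changes of -1.83, -1.92, -1.63, -1.53 and -0.93. Casq2, the calcium store protein, and Smyd1, a muscle methyltransferase, were called outside the list, at -2.30 and -1.44. Without KO 10 Tnnc1 was lost (adjusted p = 0.0655). Casq2 was lost without any 1 kidney, Smyd1 without any but KO 9, Neb without any but WT 3, and Myh7 without WT 1, WT 8, KO 7 or KO 10 (adjusted p = 0.0533 to 0.236), and all 4 were lost with sex as a covariate.

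Other muscle genes were lower on average but did not pass. Tnnc2 and Myl1, of fast fibres, were at 2.5 to 5.83 TPM in WT against 0.34 to 2.11 TPM in KO and 4.3 to 10.6 TPM in WT against 1.73 to 3.63 TPM in KO (adjusted p = 0.0614 and 0.0542). Myog and Myod1, the transcription factors of muscle differentiation and commitment, were at 2.24 to 3.57 TPM in WT against 0.37 to 1.48 TPM in KO and 0.61 to 0.68 TPM in WT against 0.11 to 0.32 TPM in KO (adjusted p = 0.158 and 0.353). Summed over the list, muscle genes reached 227, 214 and 197 TPM in WT against 149, 158 and 140.2 TPM in KO, without overlap. The sum includes Des and Eno3, which other cells also express and which had log2 fold changes of -0.06 and -0.03. None of the 13 tested smooth muscle and mural cell genes was called by edgeR (unadjusted p under 0.05 for 2 of 13 or 15.4%, 0 called by DESeq2), with Acta2, smooth muscle actin, at 15.4, 17.96 and 11.98 TPM in WT against 13.03, 10.8 and 21.4 TPM in KO. In bulk kidney, fewer cells of a type and less RNA per cell cannot be told apart.

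Inflammatory genes were also lower in KO. Their list too was written with earlier results of these data known, so its shares are not a test. Of 29 tested genes of the list, 5 fell (Il1b, Cxcl10, Saa3, Ifit1 and Isg15), against 0.206% of all tested genes, and none rose, 26 had a log2 fold change below 0, and the median was -0.65. Of these tested genes, 5 (Il1b, Tnf, Cxcl10, Ccl4 and Saa3) reached the count minimum through the WT kidneys alone and so had to differ. Among the other 24, 2 fell (Ifit1 and Isg15), 21 had a log2 fold change below 0, and the median was -0.54. Neither Ifit1 nor Isg15 was called in the kidneys alone (adjusted p = 0.487 and 0.375), where the calls of the list were Cxcl10 and Saa3. Saa3, an acute-phase serum amyloid made by activated macrophages and stroma, was at 4.51, 8.62 and 13.9 TPM in WT against 0.18, 0.09 and 0.09 TPM in KO. It had 40, 60 and 70 counts in WT and 1, 1 and 1 counts in KO, and the pooled ratio of WT to KO was 80.2 (95% exact counting interval 26.97 to 393), with an adjusted p of 0.000101. Cxcl10, an interferon-induced chemokine for T cells, was at 3.01, 6.04 and 6.14 TPM in WT against 0.13, 0.1 and 0.3 TPM in KO. It fell 27.8-fold (log2 fold change -4.80 ± 0.47 SE, adjusted p = 0.000138), with WT embryo 1 the lowest of the WT kidneys. Irg1, whose enzyme makes itaconate in activated macrophages, was at 1.45, 2.43 and 3.01 TPM in WT against 0.02, 0.01 and 0.02 TPM in KO. It had 92, 123 and 110 counts in WT and 1, 1 and 2 counts in KO, a ratio of 115 (95% exact counting interval 44.5 to 424) and an adjusted p of 0.000139. Irg1, which is not on the list, also reached the count minimum through the WT kidneys alone.

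Il1b, Clec4e and Ccl5, which activated myeloid cells express, held few or no counts in KO and were tested only because of their counts in WT. Il1b, the interleukin 1 beta gene, had 24, 28 and 33 counts in WT and 0, 0 and 0 counts in KO, at least 13.3-fold lower in KO against a floor of 3 counts per library (adjusted p = 0.0152). Clec4e, a receptor for microbial glycolipids, had 40, 38 and 59 counts in WT and 0, 0 and 2 counts in KO, a ratio of 96.9 (95% exact counting interval 26.3 to 808). Ccl5, a chemokine for T cells and monocytes, had 23, 28 and 31 counts in WT and 0, 0 and 1 counts in KO, a ratio of 116 (95% exact counting interval 20.2 to 4636). Spp1, Il1rn, Tnfrsf1b and Cd72 were detected in every KO kidney. Spp1, the secreted phosphoprotein osteopontin, was at 4.3, 6.35 and 7.82 TPM in WT against 1.02, 1.67 and 0.56 TPM in KO (log2 -2.51, adjusted p = 0.0306). Il1rn, the interleukin 1 receptor antagonist, Tnfrsf1b, a receptor for tumour necrosis factor, and Cd72, a lectin of B cells and macrophages, had log2 fold changes of -1.83, -0.89 and -1.70. Tnf itself was at 0.63, 0.34 and 0.83 TPM in WT against 0, 0.09 and 0.07 TPM in KO and did not pass (adjusted p = 0.0664). Without KO 10, Il1b and Ccl5 were lost (adjusted p = 0.0616 and 0.0833). Cd72 was lost without any 1 kidney, Il1rn and Tnfrsf1b without any but WT 1, and Spp1 without WT 3, WT 8, KO 7 or KO 10 (adjusted p = 0.0533 to 0.208). Sex as a covariate ended the calls of Cd72, Tnfrsf1b and Spp1, and the kidneys alone gave neither Il1b (adjusted p = 0.08399) nor these 4.

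Interferon targets fell as well. Isg15, a ubiquitin-like protein induced by interferon, was at 1.49, 4.29 and 3.92 TPM in WT against 0.85, 0.61 and 0.79 TPM in KO (log2 -2.18, adjusted p = 0.0148). Ifit1, which binds foreign RNA ends, was at 0.74, 0.87 and 1.35 TPM in WT against 0.05, 0 and 0.23 TPM in KO (log2 -3.34, adjusted p = 0.0321). WT embryo 1 was the lowest WT kidney for both. Gbp5, an interferon-induced guanylate-binding protein, had 23, 22 and 20 counts in WT and 2, 1 and 3 counts in KO, a ratio of 15.3 (95% exact counting interval 6.67 to 43.3) and an adjusted p of 0.000587 (0.0506 in the kidneys alone). Mx1, an antiviral GTPase, had 26, 48 and 23 counts in WT and 0, 4 and 9 counts in KO (adjusted p = 0.00747). Both Gbp5 and Mx1 reached the count minimum through the WT kidneys alone and so had to differ. Isg15 was lost without WT 3, WT 8, KO 9 or KO 10, and Ifit1 without WT 3, WT 8 or KO 7 (adjusted p = 0.0521 to 0.109) or with sex as a covariate (0.0762). B2m, the light chain of class I histocompatibility molecules, was not called, at 82.1 to 112 TPM in WT against 88.7 to 112 TPM in KO (log2 -0.09, adjusted p = 0.891).

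**Figure D4:**
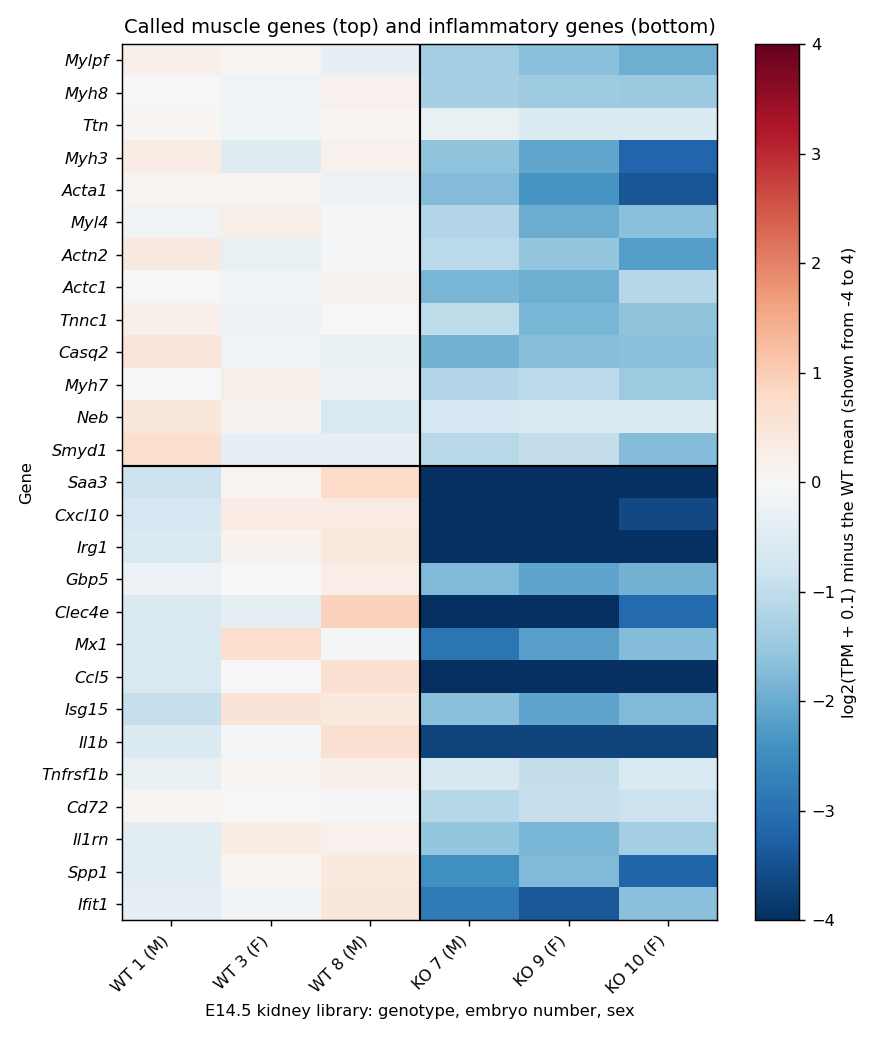
Called muscle genes (top) and inflammatory genes (bottom) are shown in the 6 kidneys, with colour for log2(TPM + 0.1) minus the WT mean, from -4 (blue) to 4 (red). The 3 KO columns are blue for both sets, and the deepest blue belongs to inflammatory genes such as Saa3 and Cxcl10.

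The promoters of these sets were read after their genes had been grouped with their values seen. The inflammatory set was picked by known function, which included the interferon response. Its share of interferon elements follows in part from that choice and is not a test. RefSeq promoters (GRCm38.p6, 250 bases before the start) were found for 11 of the 14 inflammatory genes, 12 of the 13 muscle genes and 4 of the 5 neighbours of Peril (not Exosc9). Both strands were searched. GAAA repeated once with any 2 bases between, the core of the element through which interferon acts, was in 7 of 11 inflammatory promoters. These were Cxcl10, Gbp5, Ifit1, Isg15, Saa3, Spp1 and Tnfrsf1b. The motif was in 0 of 12 muscle promoters and in 2.39% of 11080 promoters of tested genes. Promoters were matched by symbol and chromosome, with no limit on distance. The Gbp5 promoter (chr3:142496684-142496933) lies apart from the counted gene (chr3:142594847-142619179), so its match cannot be assigned to that gene. Cxcl10, Gbp5 and Saa3 passed the count minimum through the WT kidneys alone. Isg15 (chr4:156200819-156201068, minus strand), Ifit1 (chr19:34640639-34640888, plus strand) and Cxcl10 (chr5:92348890-92349139, minus strand) are shown 5′ to 3′ as interferon targets that fell, with the motif or its reverse complement in capitals. The matches of Isg15 overlap each other.
Isg15: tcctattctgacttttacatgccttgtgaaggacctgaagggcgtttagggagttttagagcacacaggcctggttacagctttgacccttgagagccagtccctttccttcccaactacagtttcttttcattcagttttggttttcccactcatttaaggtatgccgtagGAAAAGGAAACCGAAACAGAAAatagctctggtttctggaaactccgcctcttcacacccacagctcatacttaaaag
Ifit1: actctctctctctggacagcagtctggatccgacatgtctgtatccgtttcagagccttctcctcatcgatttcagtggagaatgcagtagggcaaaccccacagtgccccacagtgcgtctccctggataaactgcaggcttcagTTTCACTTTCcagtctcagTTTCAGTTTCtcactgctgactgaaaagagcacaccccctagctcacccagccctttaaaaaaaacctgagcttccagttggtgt
Cxcl10: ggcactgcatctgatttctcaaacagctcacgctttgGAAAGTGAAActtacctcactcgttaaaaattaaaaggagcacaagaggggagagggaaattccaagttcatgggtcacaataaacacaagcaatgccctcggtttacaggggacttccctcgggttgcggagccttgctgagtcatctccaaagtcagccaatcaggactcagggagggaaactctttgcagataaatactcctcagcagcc

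TATAAA was found in 4 of 12 muscle promoters, 3 of 11 inflammatory promoters and 6.51% of all. CAGCTG, a sequence bound by myogenic factors, was in 2 of 12 muscle promoters, 1 of 11 inflammatory promoters and 12% of all. GGGA and TTTCC with any 1 base between, a form of the NF-kappa-B site, was in 1 of 11 inflammatory promoters and 0.37% of all. That match is in the Gbp5 promoter, which lies apart from the counted gene. CACGTG, an E-box, was in 1 of 4 promoters near Peril and 8.24% of all. Acta1 (chr8:123894776-123895025, minus strand) and Mylpf (chr7:127211358-127211607, plus strand), the muscle genes whose promoters hold CAGCTG, are shown with these letters, and the TATAAA of Acta1, in capitals. A match describes the sequence and does not show that a factor binds it.
Acta1: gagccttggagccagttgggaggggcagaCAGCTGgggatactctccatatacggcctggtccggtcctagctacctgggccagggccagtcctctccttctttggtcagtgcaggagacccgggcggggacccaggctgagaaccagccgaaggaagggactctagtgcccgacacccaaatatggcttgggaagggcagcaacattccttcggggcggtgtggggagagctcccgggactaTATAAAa
Mylpf: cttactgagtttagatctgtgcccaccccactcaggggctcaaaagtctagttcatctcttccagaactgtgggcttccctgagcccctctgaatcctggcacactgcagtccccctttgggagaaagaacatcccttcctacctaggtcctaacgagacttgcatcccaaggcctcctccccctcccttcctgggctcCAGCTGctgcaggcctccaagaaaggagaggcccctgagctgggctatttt

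Macrophage genes were measured beside the inflammatory genes. All 17 tested macrophage genes had a log2 fold change below 0 (median -0.40, or -0.46 to -0.23 with each kidney left out, nearest 0 without WT 8), and none was called by edgeR (unadjusted p under 0.05 for 4 of 17 or 23.5%, 0 called by DESeq2; all tested genes, 7.7%). Their summed levels were 93.2, 100.2 and 117 TPM in WT against 85.6, 69.5 and 88.4 TPM in KO and did not overlap. Csf1r, the receptor on which macrophages depend, was at 3.52, 4.55 and 4.82 TPM in WT against 3.93, 2.9 and 4.24 TPM in KO, and Cx3cr1, a chemokine receptor of resident macrophages, was at 2.59, 2.41 and 2.76 TPM in WT against 3.02, 1.94 and 2.47 TPM in KO. Adgre1, the F4/80 antigen of macrophages, was at 1.85, 1.61 and 2.66 TPM in WT against 1.63, 1.34 and 1.43 TPM in KO, and all 3 overlapped between genotypes. Cd68, Lyz2 and C1qb, named after their values were seen, were the 3 of 17 without overlap, where 17.5% of all tested genes had none. Cd68, a lysosomal protein of phagocytes, was at 4.15, 4.8 and 4.03 TPM in WT against 3.26, 2.81 and 3.45 TPM in KO (adjusted p = 0.315). Lyz2, the lysozyme of myeloid cells, was at 14.2 to 23.97 TPM in WT against 8.52 to 13.5 TPM in KO, and C1qb, of complement, at 11.3 to 12.97 TPM in WT against 9.1 to 10.6 TPM in KO (adjusted p = 0.658 and 0.5397). Granulocyte genes, of which 1 was tested, summed to 4.66, 7.75 and 25.9 TPM in WT against 6.68, 6.1 and 4.39 TPM in KO, highest in WT embryo 8. Without that library Isg15, Tnfrsf1b, Cd72, Il1rn, Spp1 and Ifit1 lost their calls, as they also did without WT 3. The other 8 called inflammatory genes are those that reached the count minimum through the WT kidneys alone, so had to differ. The part of macrophage number in the inflammatory differences was not tested.

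Cell classes of the nephron were compared through marker lists, in which edgeR called no gene. The counts of members with an unadjusted p under 0.05 stand against 7.7% of all tested genes. Nephron progenitor genes had a median log2 fold change of 0.04 over 18 genes (unadjusted p under 0.05 for 1 of 18 or 5.56%, 0 called by DESeq2) and summed to 899, 771 and 753 TPM in WT against 847, 941 and 831 TPM in KO. Six2, Cited1 and Eya1, regulators of the progenitor cap, had log2 values of -0.02, 0.05 and 0.02. Early nephron genes, of the vesicle and its descendants, had log2 values above 0 for 15 of 16 (median 0.48, or 0.29 to 0.79 with each kidney left out; unadjusted p under 0.05 for 7 of 16 or 43.8%, 1 called by DESeq2, Pou3f3). Wnt4, the signal that drives vesicle formation, was at 13.2, 20.1 and 7.97 TPM in WT against 19.9, 13.9 and 27.7 TPM in KO (adjusted p = 0.716), and Lhx1, a transcription factor of the vesicle, was at 9.79, 14.4 and 7.65 TPM in WT against 16.1, 16.3 and 19.1 TPM in KO (adjusted p = 0.2703). Wnt4 overlapped between genotypes and Lhx1 did not. Pax8, expressed in the same structures, was at 18.7, 32.1 and 14.8 TPM in WT against 36.6, 23.4 and 31.8 TPM in KO (adjusted p = 0.688). WT embryo 8 was the lowest library for all 3 genes, and the sums of the list, 161, 239 and 177 TPM in WT against 258, 214 and 275 TPM in KO, overlapped.

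Ureteric bud genes had a median of 0.19 over 19 genes (unadjusted p under 0.05 for 4 of 19 or 21.1%, 0 called by DESeq2) and summed to 558, 487 and 427 TPM in WT against 616, 500.4 and 586 TPM in KO. Ret, the receptor that drives branching at the bud tip, was at 8.68, 6.02 and 7.84 TPM in WT against 9.64, 10.8 and 9.68 TPM in KO without overlap, yet did not pass (adjusted p = 0.545). Wnt11, a ligand of the tip, was at 30.9, 21.2 and 30.4 TPM in WT against 40.8, 30.7 and 27.2 TPM in KO, and Wnt9b, the ligand of the stalk that induces nephrons, at 4.27, 3.57 and 2.78 TPM in WT against 6.21, 4.36 and 5.78 TPM in KO (adjusted p = 0.792 and 0.457). Signals of branching and induction had values above 0 for 24 of 28 genes (median 0.14, unadjusted p under 0.05 for 8 of 28 or 28.6%, 0 called by DESeq2, against 7.7% of all tested genes) and summed to 543, 471 and 507 TPM in WT against 579, 595 and 579 TPM in KO without overlap. Podocyte and proximal tubule genes had medians of 0.16 and 0.25 (the latter -0.02 to 0.92 with each kidney left out, below 0 without KO 7) over 17 and 11 genes (unadjusted p under 0.05 for 3 of 17 or 17.6%, 0 called by DESeq2, and unadjusted p under 0.05 for 4 of 11 or 36.4%, 1 called by DESeq2, Lrp2). Nphs1, of the slit diaphragm, was at 0.02 to 1.59 TPM across the 6 kidneys, and Podxl, a podocyte surface sialomucin, at 7.42, 11.7 and 7.76 TPM in WT against 19.2, 10.3 and 16.02 TPM in KO (adjusted p = 0.375). Lrp2, the tubule receptor megalin, was at 0.99, 0.75 and 0.65 TPM in WT against 1.58, 1.2 and 1.25 TPM in KO, higher in each KO kidney, and missed the threshold of edgeR (adjusted p = 0.08103).

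Stroma and vessels had no marker called by edgeR either, and 7.7% of all tested genes had an unadjusted p under 0.05. Stromal genes had log2 values below 0 for 14 of 17 (median -0.14, or -0.29 to 0.04 with each kidney left out and above 0 without WT 8; unadjusted p under 0.05 for 2 of 17 or 11.8%, 0 called by DESeq2) and summed to 2355, 2332 and 3087 TPM in WT against 2469.8, 2529 and 2269.8 TPM in KO, highest in WT embryo 8. Foxd1, Meis1 and Aldh1a2 of the stroma had log2 values of -0.17, -0.10 and -0.08. Endothelial genes had values above 0 for 14 of 16 (median 0.20, or 0.02 to 0.27 with each kidney left out, nearest 0 without KO 10; unadjusted p under 0.05 for 3 of 16 or 18.8%, 0 called by DESeq2) and summed to 247, 251 and 234 TPM in WT against 275, 265 and 359 TPM in KO. These sums did not overlap on the TPM scale, but did on the CPM scale. Pecam1, a junction protein of endothelium, was at 18.8, 16.6 and 20.02 TPM in WT against 19.4, 21.8 and 29.3 TPM in KO (adjusted p = 0.566), highest in KO embryo 10. Red blood cell genes summed to 9334, 15324 and 9480.1 TPM in WT against 8897, 7084 and 10425 TPM in KO, highest in WT embryo 3, with a median of -0.48 (-0.63 to -0.16 with each kidney left out, nearest 0 without WT 3) over 11 genes (unadjusted p under 0.05 for 6 of 11 or 54.5%, 0 called by DESeq2).

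**Figure D5:**
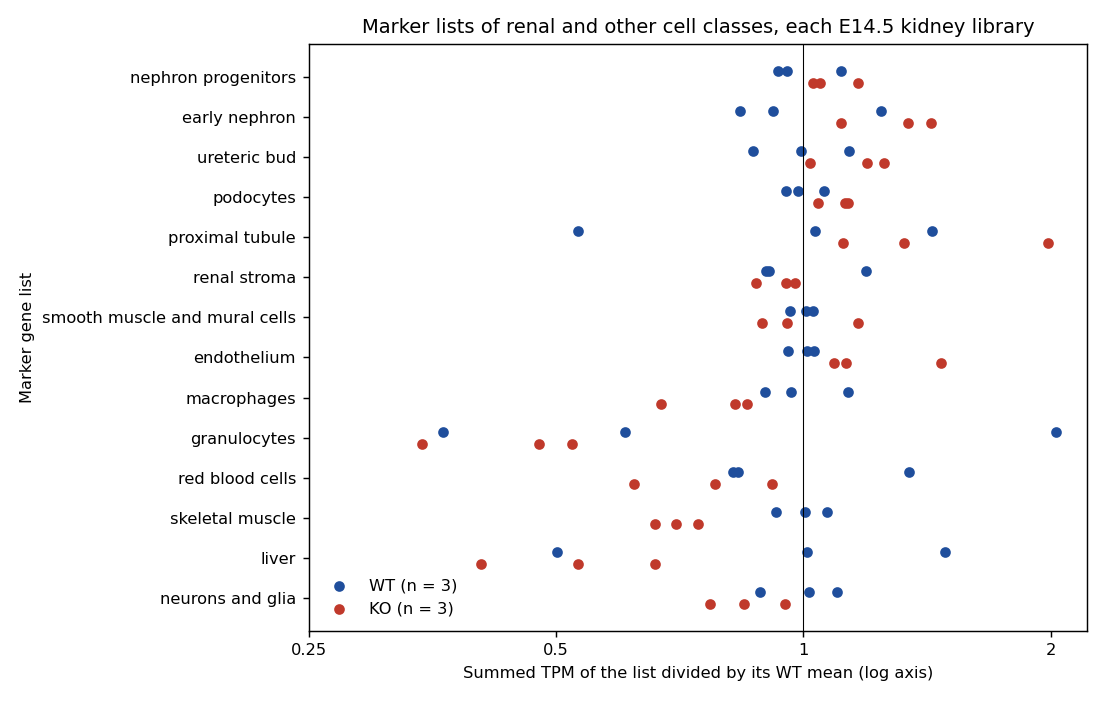
For each marker list, points give the summed TPM of each kidney divided by the WT mean of the list, on a log axis, with WT in blue and KO in red. Skeletal muscle and macrophage sums are lower in every KO kidney than in every WT kidney, endothelial sums are higher, and nephron progenitor, ureteric bud and stromal sums overlap.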

How the data were processed

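PolyA RNA-seq was read from 16 libraries, of which 6 were kidney. Reads were aligned to mm10 with bowtie2 and quantified per gene with RSEM (version not given in the sources used here) by the authors, who deposited expected counts and TPM for each library without pooling. The deposited effective length was used in 1 alternative. The labels' processing notes name DESeq, RSEM and mm10. Expected counts were rounded, and 15528 of 26759 genes had 10 or more counts in 3 or more kidneys. edgeR 4.0.16 (R 4.3.3) fitted all 16 libraries with 1 term for each of 6 tissue and genotype groups and TMM factors, as the published code of the study fits all tissues in 1 model. SE was taken as the absolute log2 fold change over the root of F. Kidney totals of 19263097 to 45924887 set the precision. Alternatives were DESeq2 1.42.0, kidneys alone, sex, other scalings and filters, a stricter threshold and each kidney left out. The code was tested on simulated data. SciPy 1.17.1 gave exact tests, and Matplotlib 3.10.9 the figures.

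Samples were grouped by labelled tissue and genotype. The genes named were every called gene, Peril, LacZ, Sox2, the called genes within 2 Mb of Peril and the first 3 genes of marker lists, with full statistics for the 10 called genes of smallest p in each direction. Others, such as Fxr1, Ccna2, Exosc8, Mccc2, Myog, Tnf and B2m, were named after their values were seen. The samples and gene lists were chosen with earlier results of these data known. The reporter assay and chromatin contact data hold no kidney and were not used.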

Additional observations from a re-analysis of the deposited data

Results flagged for a closer look

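Differences between kidney and another tissue, each from a contrast of the same edgeR fit (log2 fold change in kidney minus that in the other tissue), passed an adjusted p of 0.05 for 17 results. The mESC arm held wells of 1 clone per genotype, so these p-values cover the spread between wells and not between clones. Against mESC, the contrast was -0.50 for Exosc9 (adjusted p = 0.00796), a gene that fell in both tissues. Muscle genes had -2.32 for Mylpf (adjusted p = 1.34e-06), -2.71 for Myh8 (0.000478), -2.71 for Ttn (0.000229), -2.35 for Myh3 (0.0410), -2.22 for Tnnc1 (0.0117), -3.29 for Casq2 (0.00329) and -1.24 for Neb (0.00528). Inflammatory genes had -6.68 for Saa3 (7.46e-05), -5.29 for Cd72 (0.00437) and -2.36 for Spp1 (0.0254). Saa3 reached the count minimum through the WT kidneys alone, so the kidney arm of its contrast had to differ. Genes that rose in the kidney had 0.69 for Frem2 (0.00262), 0.37 for Itga6 (0.0198), 0.39 for Fam199x (0.0133) and 0.34 for Ly75 (0.0477).

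Against GE/OB, Myh8 had -2.53 (adjusted p = 0.0208) and Duxbl1 -11.54 (0.00315). In GE/OB the WT embryos were male and the KO embryos female, so genotype and sex cannot be told apart there.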

How the results depend on the processing

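The count of 38 called kidney genes (6 higher, 32 lower) became 10 with the kidneys fitted alone (1 higher, 9 lower), 78 with DESeq2 (31 higher, 47 lower, 37 shared with the 38) and 22 at an adjusted p under 0.01. With sex as a covariate, other size factors, other filters or other forms of DESeq2 it was 36 to 55. It ranged from 21 (without KO embryo 10) to 72 (without WT embryo 1) with each kidney left out. The contrast with mESC gave 400 genes, 693 with DESeq2 and 302 to 459 with a kidney left out. The contrast with GE/OB gave 6 genes, 15 with DESeq2 and 5 to 11 with a kidney left out (11 without WT embryo 1). The cause of these changes was not tested. A window of 5 Mb in place of 2 Mb around Peril raised the called neighbours from 3 to 5. Gm5148, which reached the count minimum through the WT kidneys alone, was among those added. Of the log2 fold changes of named genes under all alternatives, 405 kept their direction and side of the threshold, 127 lost the threshold and 0 changed sign. Of the medians of gene lists, 246 moved by less than the spread between replicates and 33 by more, and 15 of 31 lists had a median of the opposite sign when 1 of the kidneys was left out, among them stroma, proximal tubule and the RNA exosome. Of the summed levels on the CPM scale, 28 moved by less than that spread and 3 by more (immediate early and stress, leucine breakdown and imprinted genes). No paired analysis was possible because the WT and KO kidneys share no embryo number. Genes near 0 counts were measured with little precision. Peril had 0 counts in all 6 kidneys, and LacZ had 25, 28 and 4 counts in WT against 4, 9 and 15 counts in KO.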

Other observations

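Lists of other programmes held no gene called by edgeR or DESeq2; an unadjusted p under 0.05 was reached by 7.7% of all tested genes, 2 of 18 proliferation genes (11.1%), 2 of 20 immediate early and stress genes (10%), 4 of 10 liver genes (40%), 2 of 11 neuronal and glial genes (18.2%), and 0 of 16 hypoxia, 0 of 15 imprinted and 0 of 12 Hox genes. Proliferation genes had a median log2 fold change of 0.02 over 18 genes, hypoxia and glycolysis genes 0.00 over 16, posterior Hox genes 0.01 over 12 and immediate early and stress genes -0.08 over 20. Imprinted growth genes had 14 of 15 values below 0, with a median of -0.14. Among tissues next to the kidney, liver genes had 10 of 10 values below 0 (median -0.79). Alb, the serum albumin gene of liver, was at 3.7, 4.96 and 0.5 TPM in WT and 0.99, 0.35 and 0.77 TPM in KO, high in WT embryos 1 and 3 and low in WT embryo 8. Medians were -0.35 for neurons and glia (11 genes), 0.17 for adrenal cortex (4), -0.22 for chromaffin cells (6), -0.17 for gonad (3), 0.02 for cartilage and bone (6), -0.24 for mesothelium (3), -0.49 for urothelium (6), -0.10 for smooth muscle (13) and -0.13 for the loop and distal tubule (4). Cyp11a1, which starts steroid synthesis in the adrenal cortex, was at 0.29, 0.15 and 0.13 TPM in WT and 0.19, 0.12 and 0.3 TPM in KO. With each kidney left out in turn, the medians of proliferation, hypoxia, Hox, adrenal cortex, chromaffin cell, gonad, cartilage, mesothelium, smooth muscle and loop genes crossed 0, and those of liver genes ranged from -1.12 to -0.37. The relation of these lists to the muscle and inflammatory differences was not tested.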
